A study of Homo sapiens with 6 samples.

Results

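Laminin chains and integrin subunits were examined in a human oral squamous cell carcinoma line under hypoxia and normoxia. They were taken by name from the deposited table as the protein-coding genes whose symbols are those of laminin alpha, beta or gamma chains (LAMA, LAMB and LAMC) or of integrin alpha or beta subunits (ITGA and ITGB). This gave 37 of 21776 genes, of which 12 encode laminin chains and 25 encode integrin subunits, 17 alpha and 8 beta. RNA sequencing compared 3 libraries of cells kept for 12 h in a tri-gas incubator at 1% O2 and 5% CO2, with nitrogen as the balance, and 3 libraries of cells kept in 5% CO2 and air. All 6 libraries are labelled as wild-type SCC25, an established line from an oral carcinoma, grown in DMEM/F12 with serum, whereas the study's legend for the sequencing names SCC9. A single line was used, the labels do not say whether replicates were separate cultures, and p-values therefore measure only the spread between these libraries.

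Laminins are trimers of 1 alpha, 1 beta and 1 gamma chain in the sheet of the basement membrane under an epithelium. Integrins are alpha-beta heterodimers that bind matrix outside the cell and the cytoskeleton inside it. In stratified epithelium, alpha6beta4 binds laminin-332, which contains LAMA3 and LAMB3, and anchors keratin filaments at hemidesmosomes, alpha3beta1 binds the same laminin at focal adhesions, and alpha5beta1 and the alphav integrins bind proteins that carry the arginine-glycine-aspartate (RGD) motif, such as fibronectin.

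Total counts were 30186813, 36076088 and 32272716 in hypoxia libraries 1 to 3 and 37278703, 29637189 and 29981208 in normoxia libraries 1 to 3. The hypoxia response genes checked, among them CA9, VEGFA and EGLN3, were called higher under hypoxia in 8 of 8 cases, with a median log2 fold change of 2.75. Of 10 squamous epithelial markers, 9 were tested, and 4 were called higher, 4 lower (EPCAM, SFN, KRT5 and GRHL2) and 1 neither, where 39.2% of all genes tested were called higher and 38.5% lower. Their summed level was 1232, 1217 and 1233 CPM, the counts of a gene scaled to a common library total, under hypoxia and 1012, 1019 and 1084 CPM under normoxia, and the most abundant was CDH1, whose own difference (479 ± 4.85 against 188 ± 10.9 CPM) was larger than that of the sum. KRT14, the basal keratin that pairs with KRT5 in epithelium, had at most 3 counts in every library.

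Most expressed laminin and integrin genes were higher under hypoxia, led by the integrin beta subunits. Of the 37 genes, 27 passed the filter on low counts and 10 did not, so counts over the 27 do not cover all members. Among the 27 genes tested, 21 were higher and 5 were lower (LAMA1, ITGA2, ITGA6, ITGAE and ITGB8), where a call is an adjusted p under 0.05 in edgeR's quasi-likelihood test with Benjamini-Hochberg adjustment over 14255 genes. Of all genes tested, 77.8% were called, 39.2% higher and 38.5% lower, so being called at all was common. With a log2 fold change over 1 as well, 10 members were higher and 1 lower, beside 19.9% and 10.5% of all genes tested. The libraries of the conditions did not overlap for 25 of the 27 members, against 80.5% of all genes tested. On the log2 scale, the members' fold changes (hypoxia minus normoxia) had a median of 0.53 over the 27 genes, 0.43 over the laminin chains, 0.52 over the alpha subunits and 1.78 over the beta subunits, beside 0.0227 over all genes tested. These are measures of RNA in bulk, in which fewer cells of a kind and less RNA per cell cannot be told apart.

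**Figure D1:**
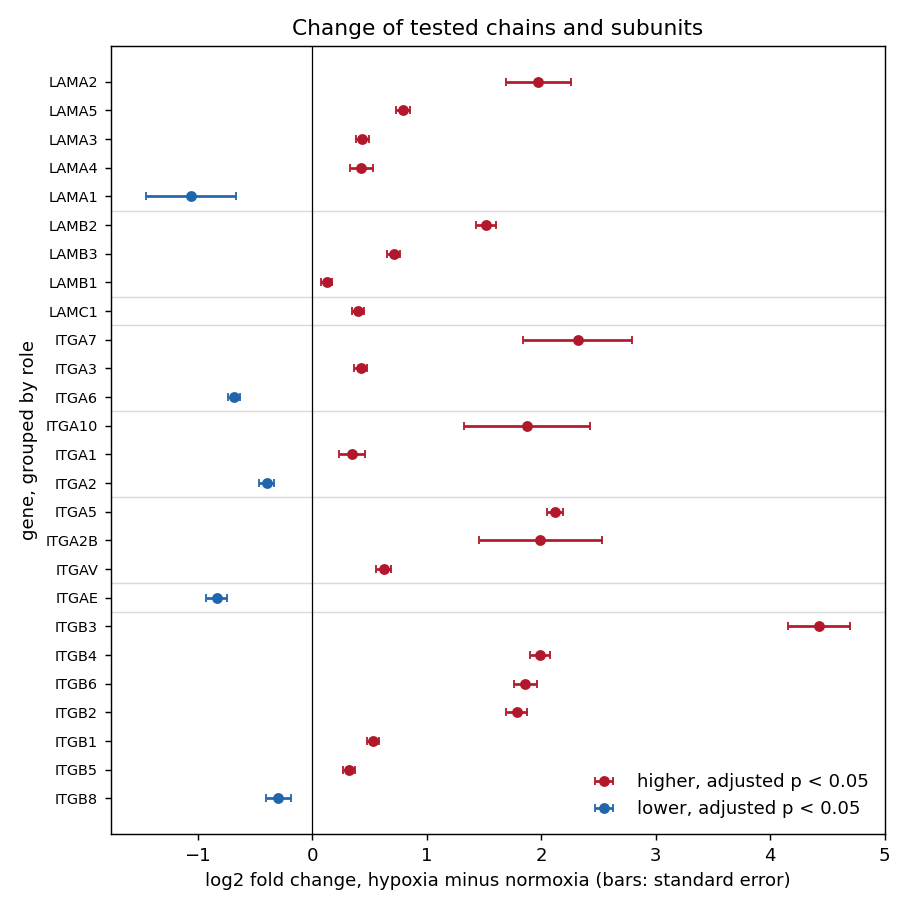
Log2 fold change (hypoxia minus normoxia, horizontal axis) of 26 tested members (vertical axis, grouped by role), with bars of 1 standard error; red is called higher and blue called lower. ITGB3 lies farthest to the right at 4.43 and LAMA1 farthest to the left at -1.06.

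The promoters of 4 members with contrasting changes are shown because hypoxia-inducible factors bind a short core, ACGTG or GCGTG, in the response elements of their targets. ITGA5, LAMB2 and ITGB6 rose by over 1 on the log2 scale and ITGA6 fell, and the 4 were chosen after their values were seen. Each run is the 250 bases before the RefSeq transcript start in GRCh38.p14, read 5′ to 3′ on the strand of the gene, with every core match on either strand in capitals. The windows are chr12:54419267-54419516 (minus strand) for ITGA5, chr3:49133051-49133300 (minus) for LAMB2, chr2:160200273-160200522 (minus) for ITGB6 and chr2:172427086-172427335 (plus) for ITGA6.
ITGA5: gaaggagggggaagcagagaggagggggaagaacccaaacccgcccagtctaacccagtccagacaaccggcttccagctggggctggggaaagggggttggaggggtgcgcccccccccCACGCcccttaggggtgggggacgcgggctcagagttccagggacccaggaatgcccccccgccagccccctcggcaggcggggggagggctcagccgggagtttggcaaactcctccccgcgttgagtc
LAMB2: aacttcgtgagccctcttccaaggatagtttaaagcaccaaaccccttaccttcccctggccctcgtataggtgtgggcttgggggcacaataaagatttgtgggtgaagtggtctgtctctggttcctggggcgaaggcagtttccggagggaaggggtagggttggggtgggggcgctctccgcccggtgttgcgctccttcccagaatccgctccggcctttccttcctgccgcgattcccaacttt
ITGB6: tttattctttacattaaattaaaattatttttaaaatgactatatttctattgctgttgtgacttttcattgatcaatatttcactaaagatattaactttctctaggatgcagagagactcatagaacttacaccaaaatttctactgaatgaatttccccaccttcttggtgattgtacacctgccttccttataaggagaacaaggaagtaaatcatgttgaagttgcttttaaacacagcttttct
ITGA6: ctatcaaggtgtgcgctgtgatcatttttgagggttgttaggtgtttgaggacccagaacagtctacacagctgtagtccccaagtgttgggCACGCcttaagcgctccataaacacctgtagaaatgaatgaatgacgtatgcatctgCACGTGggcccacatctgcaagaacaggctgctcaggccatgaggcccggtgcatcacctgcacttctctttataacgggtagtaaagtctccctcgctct
The ITGA5 window holds 1 core, 130 bases before the start. The LAMB2 and ITGB6 windows hold 0, and the window shown for ITGA6 holds 3, of which 2 overlap in CACGTG. RefSeq gives ITGA6 a second start, whose window (not shown) holds 1 core, and ITGB5, which was called higher, also has a window with 3. Other members that rose by over 1 differed as well. The windows of ITGA2B and LAMA2 (1.99 and 1.98 on the log2 scale) hold 1 core each, and that of ITGA10 (1.88) holds 0. RefSeq windows were matched for 26 of the 37 members, and the core stood in 11 of their 33 windows (33.3%), against 43.2% of 35116 windows of the same length. Among members with a window, 4 of the 16 called higher and 3 of the 4 called lower held a core in at least 1 window. The 43.2% is a share of windows, not of genes. A share over all genes was not computed, so these counts have no matching background and are not read as a difference. Of the 4 called lower, ITGB8 had a call that rested on single libraries, as given below. A match is a run of letters only, and other stretches of these genes were not searched.

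Of the 12 laminin chains, 10 were tested, 8 were called higher and 1, LAMA1, lower, beside 39.2% and 38.5% of all genes tested. Among the 8, LAMB2 and LAMA2 were past a log2 fold change of 1, and 2 of 10 is close to the 19.9% of all genes tested. LAMB2 (Entrez 3913), the beta2 chain, which can replace beta1 in a trimer, measured 275, 277 and 262 CPM in hypoxia libraries 1 to 3 and 86.8, 82.6 and 115 CPM in normoxia libraries 1 to 3. Every hypoxia library lay above every normoxia library. The log2 fold change was 1.52 (SE 0.0887, edgeR adjusted p = 5.66e-11, n = 3 per condition). Its sister LAMB1 moved far less: it measured 525, 497 and 493 CPM under hypoxia and 450, 464 and 474 CPM under normoxia, with a log2 fold change of 0.13 (SE 0.050, edgeR adjusted p = 0.0283). The LAMB1 libraries did not overlap, but the call was lost without hypoxia library 1 (0.09, adjusted p = 0.150 in edgeR), normoxia library 1 (0.09, adjusted p = 0.162) or normoxia library 2 (0.12, adjusted p = 0.0635), and with no filter on low counts (0.09, adjusted p = 0.172).

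The alpha and beta chains of laminin-332 rose. LAMB3, its beta chain, measured 1364, 1543 and 1454 CPM under hypoxia and 862, 852 and 951 CPM under normoxia, a log2 fold change of 0.71 (SE 0.0589, edgeR adjusted p = 5.65e-09). LAMA3 measured 525, 551 and 551 CPM against 376, 388 and 438 CPM, a log2 fold change of 0.44 (SE 0.0585, edgeR adjusted p = 2.63e-06). For both genes, all hypoxia libraries were above all normoxia libraries.

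Chains of the other trimers also rose. LAMA5, the alpha chain of laminin-511 and laminin-521, measured 525, 561 and 507 CPM under hypoxia and 297, 287 and 336 CPM under normoxia (log2 fold change 0.79, SE 0.0621, edgeR adjusted p = 2.66e-09). LAMC1, the gamma chain that most laminins share, measured 309, 308 and 304 CPM against 224, 233 and 241 CPM (0.40, SE 0.0501, edgeR adjusted p = 1.12e-06). LAMA4, typical of vessel walls, measured 32.1, 26.4 and 24.5 CPM under hypoxia and 19.1, 19.6 and 23.1 CPM under normoxia (0.43, edgeR adjusted p = 1.09e-03). None of these 3 genes had overlapping conditions. LAMA2, the alpha chain of muscle laminin, was scarce, with 94, 178 and 123 counts under hypoxia and 53, 19 and 24 under normoxia, or 3.88 ± 0.86 against 0.97 ± 0.40 CPM, and the libraries did not overlap (log2 fold change 1.98, SE 0.284, edgeR adjusted p = 5.96e-06). Markers of vessel and connective tissue cells were low, and 4 of 12 were tested, where 77.8% of all genes tested were called and 39.2% called higher. Of 6 endothelial markers 2 were tested and both called higher (CDH5 and ESAM). The list summed to 5.04, 4.30 and 5.18 CPM against 2.36, 2.48 and 3.28 CPM with ESAM the most abundant. Of those not tested, VWF had 10, 9 and 4 counts against 0 in each normoxia library and PECAM1 5, 9 and 10 against 2, 0 and 0. TEK and TIE1 had at most 3 counts in every library. Of 6 fibroblast markers 2 were tested and 1, COL1A1, was called higher. The fibroblast list summed to 22.1, 18.7 and 17.1 CPM against 4.03, 3.15 and 5.64 CPM, most of it COL1A1 (18.0 ± 2.02 against 3.76 ± 1.17 CPM). Of those not tested, LUM had 27, 9 and 8 counts against 1, 1 and 2, COL1A2 and DCN overlapped between conditions, and COL3A1 had at most 3 counts in every library. Their part in the LAMA2 and LAMA4 results was not tested.

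LAMA1, LAMB4 and LAMC3 were close to absent. LAMA1, the chain of the embryonic laminin-111, had 13, 16 and 13 counts under hypoxia and 42, 18 and 25 under normoxia, a log2 fold change of -1.06 (edgeR adjusted p = 0.0213). Without normoxia library 1, whose count was the highest, the change was -0.82 (adjusted p = 0.125 in edgeR), and leaving out any hypoxia library gave adjusted p-values of 0.0511 to 0.0613. LAMB4 had 3 to 11 counts under hypoxia and 9 to 29 under normoxia and was not tested, and LAMC3 had 4 counts in hypoxia library 2 and 0 in the others, which leaves up to 3 counts possible in each of those.

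Among the laminin-binding integrins, ITGB4 rose 3.97-fold while its only known partner, ITGA6, fell. ITGB4 (Entrez 3691), the beta4 subunit whose long tail binds plectin in hemidesmosomes, measured 1124, 1279 and 1182 CPM in hypoxia libraries 1 to 3 and 268, 278 and 357 CPM in normoxia libraries 1 to 3. The lowest hypoxia library was far above the highest normoxia library. The log2 fold change was 1.99 (SE 0.0862, edgeR adjusted p = 1.50e-12). ITGA6 (Entrez 3655), the alpha subunit that pairs with beta4 or beta1, measured 265, 272 and 260 CPM under hypoxia and 413, 419 and 449 CPM under normoxia. All hypoxia libraries of ITGA6 were below all normoxia libraries, and the gene fell by 0.68 on the log2 scale (SE 0.0517, edgeR adjusted p = 1.66e-09).

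The pair that binds laminin at focal adhesions rose by a smaller amount. ITGA3, whose product pairs with beta1 alone, measured 955, 989 and 949 CPM under hypoxia and 681, 702 and 776 CPM under normoxia (log2 fold change 0.42, SE 0.0553, edgeR adjusted p = 1.94e-06). ITGB1, the beta subunit shared by many alpha partners, measured 1002, 1015 and 1029 CPM against 674, 676 and 757 CPM (0.53, SE 0.0545, edgeR adjusted p = 9.11e-08). In both genes the conditions were apart. ITGA7, the muscle laminin receptor, was near 0.96 CPM under hypoxia and 0.19 CPM under normoxia, with 37, 23 and 34 counts under hypoxia and 8, 3 and 7 under normoxia (2.32, SE 0.476, edgeR adjusted p = 2.68e-04).

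**Figure D2:**
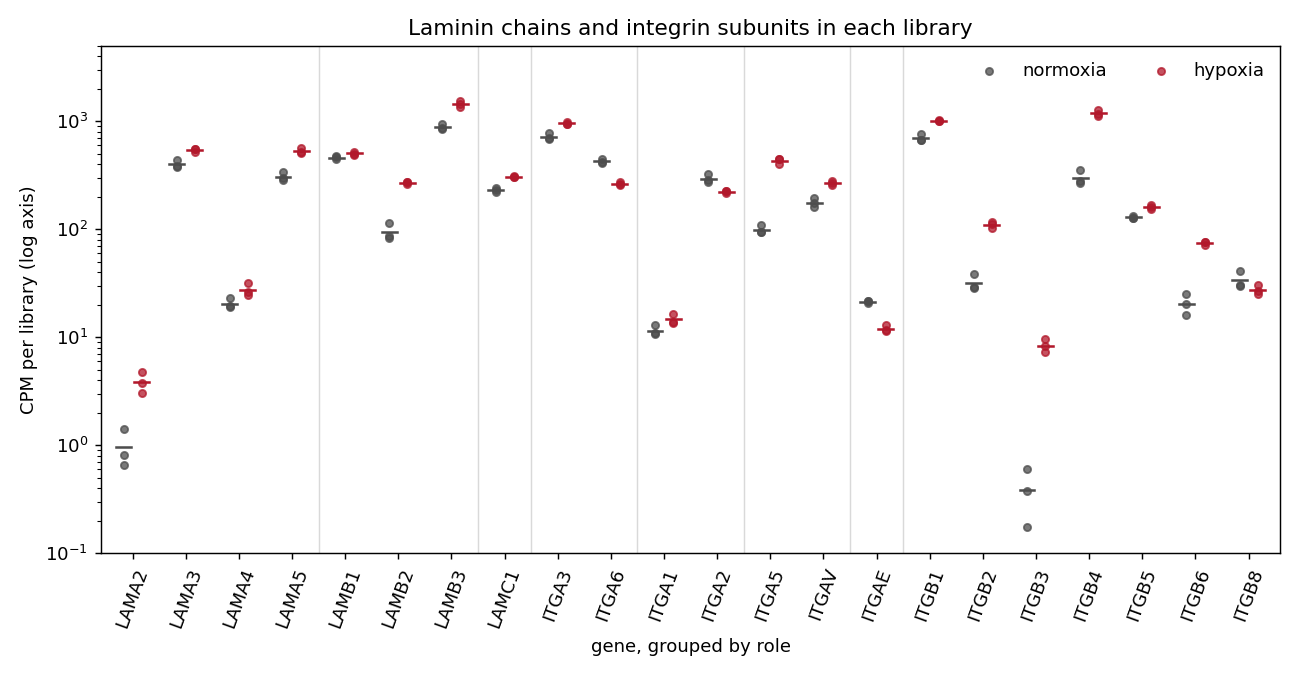
CPM (logarithmic vertical axis) of 22 members with a mean of at least 1 CPM in a condition (horizontal axis, grouped by role), with a point per library, 3 grey for normoxia and 3 red for hypoxia, and a line at each mean. ITGB4 stands near 301 CPM in normoxia and 1195 CPM in hypoxia, ITGA6 near 427 and 266 CPM, and the points of ITGB8 overlap between conditions.

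The tested RGD-binding alpha subunits and their beta partners rose, with the exception of ITGB8. ITGA5 (Entrez 3678), the alpha subunit of the fibronectin receptor, measured 399, 449 and 452 CPM under hypoxia and 93.9, 95.3 and 110 CPM under normoxia. The hypoxia libraries stood well clear of the normoxia libraries, with a log2 fold change of 2.12 (SE 0.0683, edgeR adjusted p = 5.30e-14), or 4.35-fold. ITGAV, which pairs with beta1, beta3, beta5, beta6 or beta8, measured 271, 283 and 260 CPM against 174, 160 and 193 CPM (0.63, SE 0.0644, edgeR adjusted p = 9.59e-08), also without overlap.

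The beta partners of ITGAV spread over a wide range of changes. ITGB6, the epithelial subunit whose dimer with alphav activates latent TGF-beta, measured 72.1, 75.9 and 75.7 CPM under hypoxia and 20.3, 16.2 and 25.0 CPM under normoxia (log2 fold change 1.86, SE 0.102, edgeR adjusted p = 2.67e-11), and 20.6% of its exonic bases lie in another GENCODE model of the same strand. ITGB5, of the vitronectin receptor alphavbeta5, measured 168, 155 and 160 CPM against 128, 127 and 132 CPM (0.32, SE 0.0525, edgeR adjusted p = 2.82e-05). Both genes were higher in every hypoxia library. ITGB8, which also serves TGF-beta activation, measured 30.5, 26.9 and 25.3 CPM under hypoxia and 30.3, 29.9 and 41.3 CPM under normoxia. Its conditions overlapped, and the fall of 0.30 on the log2 scale (edgeR adjusted p = 0.0193) rested on single libraries, since without normoxia library 3 it was -0.15 (adjusted p = 0.109 in edgeR), without hypoxia library 2 -0.28 (adjusted p = 0.0659) and without hypoxia library 3 -0.24 (adjusted p = 0.0877).

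ITGB3 had the highest fold change of the members tested. This beta3 subunit, of the vitronectin receptor and of the platelet fibrinogen receptor, had 221, 358 and 270 counts in hypoxia libraries 1 to 3 and 14, 5 and 18 in normoxia libraries 1 to 3, or 8.39 ± 1.20 against 0.39 ± 0.22 CPM (SD, n = 3). No hypoxia count came near a normoxia count, and the log2 fold change was 4.43 (SE 0.268, edgeR adjusted p = 9.06e-11). In GENCODE v29, 51.6% of the exonic bases of ITGB3 also belong to another gene model on the same strand, and how reads there were assigned is not given in the sources used here. ITGA2B, the platelet partner of beta3, had 34, 23 and 14 counts against 8, 2 and 7 (1.99, SE 0.539, edgeR adjusted p = 2.83e-03), a mean of 0.72 against 0.17 CPM. Of 6 megakaryocyte markers 5 were in the table and 0 were tested: PF4, PPBP and GP1BA had at most 3 counts in every library, and the 5 summed to 0.197, 0.350 and 0.216 CPM under hypoxia and 0.188, 0.140 and 0.135 CPM under normoxia.

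The collagen-binding alpha subunits went both ways. ITGA2, the collagen receptor of epithelium, measured 225, 226 and 218 CPM under hypoxia and 272, 284 and 326 CPM under normoxia. All hypoxia libraries were lower, by 0.40 on the log2 scale in the fit (fold 0.759, SE 0.0620, edgeR adjusted p = 1.49e-05). ITGA1, which favours collagen IV, had 505, 521 and 437 counts against 409, 304 and 382 (log2 fold change 0.35, edgeR adjusted p = 9.75e-03), and without hypoxia library 1 the value was 0.25 (adjusted p = 0.0762 in edgeR). Its exons share 475 bases with PELO on the same strand, a gene with 1210 to 1333 counts under hypoxia and 1915 to 2529 under normoxia. ITGA10, a cartilage subunit, had 13, 20 and 14 counts against 7, 2 and 3 (1.88, edgeR adjusted p = 4.89e-03), and ITGA11 had 0 under hypoxia and 4, 1 and 1 under normoxia.

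The leukocyte integrins were represented by ITGB2 and ITGAE, without the alpha subunits that normally accompany ITGB2. ITGB2, the CD18 subunit, measured 111, 103 and 116 CPM under hypoxia and 29.2, 28.4 and 38.3 CPM under normoxia. The conditions were widely apart, with a log2 fold change of 1.78 (SE 0.0895, edgeR adjusted p = 8.47e-12). Its alpha partners had few reads: ITGAL 1, 5 and 3 counts under hypoxia and 0 in each normoxia library, ITGAM 6, 15 and 10 against 2, 3 and 2, and ITGAX 1, 3 and 14 against 0 in each. Those 3 genes were not tested. An antisense gene, ITGB2-AS1, shares 303 exonic bases with ITGB2 (4.46% of them) and had 740, 757 and 635 counts under hypoxia and 171, 93 and 133 under normoxia. Whether counting used the strand is not given in the sources used here, so reads in the shared bases cannot be told apart.

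Leukocyte markers were scarce. Of 10 listed, 8 were in the table and 2, CD14 and CSF1R, were tested, and both were called higher (log2 fold changes 2.45 and 2.49). Among all genes tested, 77.8% were called and 39.2% called higher. The 8 summed to 12.7, 12.3 and 11.8 CPM under hypoxia and 2.36, 1.64 and 3.04 CPM under normoxia, with CSF1R the most abundant. PTPRC, CD3E, CD79A, TYROBP and FCER1G, which include the pan-leukocyte and T and B cell markers, had at most 3 counts in every library. ITGAE, the alphaE subunit that binds E-cadherin, fell: it measured 12.9, 11.7 and 11.4 CPM under hypoxia and 21.7, 21.7 and 20.8 CPM under normoxia (-0.84, SE 0.0913, edgeR adjusted p = 2.11e-07), with no overlap. ITGAE shares 427 exonic bases (6.41%) with HASPIN on the opposite strand, which had 349 to 441 counts under hypoxia and 757 to 1019 under normoxia. ITGB7, its beta partner, whose exons overlap those of ZNF740 over 42.1% of their bases, had 5, 11 and 5 counts against 1, 8 and 3, and ITGA4, ITGA8 and ITGA9 had at most 3 counts in every library.

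Levels per length show which chains dominated. In FPKM, which scales fragments by gene length and library total, LAMB3 stood first under both conditions (326 ± 23.5 under hypoxia and 193 ± 13.1 under normoxia, SD, n = 3) and ITGB1 second (257 ± 4.13 and 172 ± 12.3). ITGA3 was at 199 ± 7.03 FPKM under hypoxia and 143 ± 10.2 under normoxia. LAMB1 and ITGA6 came next to each other under normoxia with 69.9 and 69.2 FPKM and could not be ordered beyond their spread. ITGB4 moved from rank 7 under normoxia (43.1 FPKM) to rank 4 under hypoxia (177 FPKM), ITGA5 from rank 14 (22.7) to rank 6 (102), and ITGA6 from rank 6 to rank 11 (44.5). Under hypoxia LAMA3, LAMB2, LAMA5 and ITGA6, at 48.7, 48.3, 46.6 and 44.5 FPKM, lay close together, with SDs from 1.58 to 3.05.

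Summed by class, the beta integrins had the largest ratio of hypoxia to normoxia, at 2.02 on FPKM, a description with no test. Their FPKM sum was 509, 540 and 521 under hypoxia and 250, 242 and 286 under normoxia, while the alpha integrins summed to 405, 434 and 410 against 291, 286 and 326. ITGB4 made up 32.6%, 35.6% and 33.2% of the beta sum under hypoxia and 15.6%, 16.1% and 18.0% under normoxia, and ITGB1 49.0% and 66.4% as means. ITGA5 made up 24.5% ± 1.30 of the alpha sum under hypoxia and 7.54% ± 0.153 under normoxia, and ITGA6 10.7% ± 0.205 and 23.0% ± 0.514. The share of ITGA3 was 47.7% and 47.6%. Among the laminin beta chains, hypoxia first, LAMB3 made up 71.9% and 69.1%, LAMB1 17.4% and 25.1% and LAMB2 10.7% and 5.81%. Among the alpha chains, LAMA3 made up 49.0% and 54.6% and LAMA5 46.9% and 40.9%. The laminin alpha sum was 99.3 ± 4.22 against 63.7 ± 5.55 FPKM and the beta sum 453 ± 23.7 against 279 ± 17.8.

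Ratios between partners and sister genes within a library do not depend on the scaling between libraries. The 6 ratios were chosen after the values had been seen, and for each the conditions did not overlap, which with 3 libraries against 3 gives a two-sided exact permutation p of 0.1, the smallest possible, and 0.1 after adjustment over the 6. ITGB4 to ITGA6, the chains of the hemidesmosome integrin, was 3.74, 4.16 and 4.02 under hypoxia and 0.574, 0.586 and 0.702 under normoxia, so that the beta4 RNA went from the scarcer to the more abundant of the pair. ITGA5 to ITGAV was 2.46, 2.65 and 2.90 against 0.900, 0.997 and 0.949. ITGB6 to ITGB5 was 0.443, 0.506 and 0.489 against 0.164, 0.131 and 0.196. In each of these 3 pairs the ratio was at least 2.81-fold higher under hypoxia.

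The remaining ratios concern ITGB1 and the laminins. ITGB1 to ITGA6 was 5.77 ± 0.180 under hypoxia and 2.48 ± 0.0563 under normoxia. LAMB2 to LAMB1 was 0.597, 0.634 and 0.605 against 0.220, 0.203 and 0.275, and LAMA5 to LAMA3 was 0.958 ± 0.0507 against 0.749 ± 0.0240. In all 3 the first gene was higher relative to the second in every hypoxia library.

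**Figure D3:**
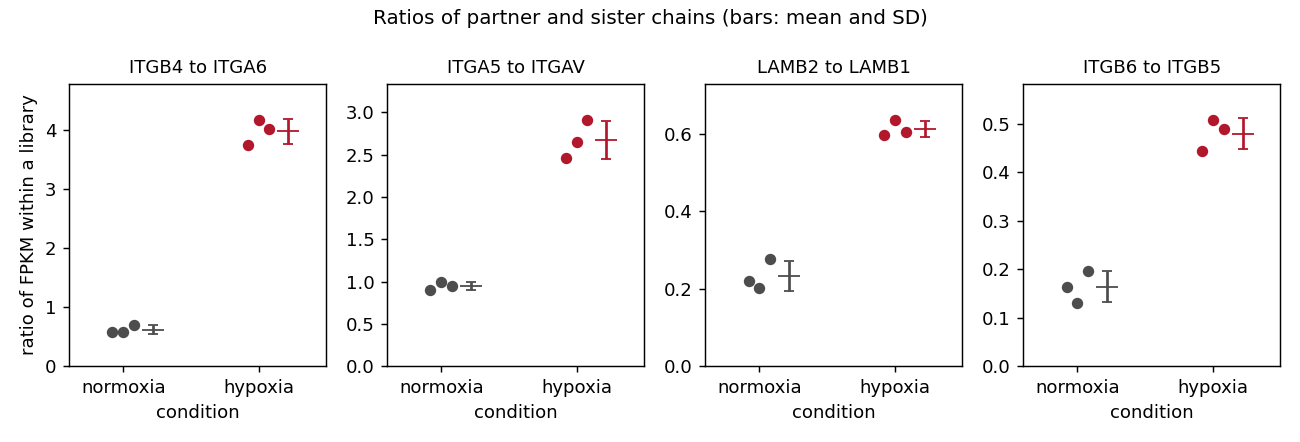
Ratio of FPKM within a library (vertical axes, starting at 0) for 4 pairs of genes under normoxia (grey) and hypoxia (red), with a point per library and the mean with 1 SD beside them. ITGB4 to ITGA6 goes from a mean of 0.621 to 3.97, ITGA5 to ITGAV from 0.949 to 2.67, LAMB2 to LAMB1 from 0.233 to 0.612 and ITGB6 to ITGB5 from 0.164 to 0.479.

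Genes that work beside laminins and integrins were described from 4 lists. Of the basement membrane and hemidesmosome partners, 13 of 18 were tested, and 11 were higher and 2 lower, with a median log2 fold change of 0.61, beside 39.2% higher and 38.5% lower among all genes tested. COL4A6, a collagen IV chain, was at 4.48 ± 0.288 CPM under hypoxia and 1.18 ± 0.416 CPM under normoxia (1.93, SE 0.241, edgeR adjusted p = 1.09e-06), and HSPG2, the heparan sulfate proteoglycan perlecan, was at 320 ± 28.5 against 101 ± 19.7 CPM (1.67, SE 0.10, edgeR adjusted p = 7.63e-11). Others on the list, picked after their values were seen, were COL7A1 of anchoring fibrils at 1.17 and agrin, AGRN, at 0.77. COL17A1, CD151 and DST, also picked from this list, were called higher at 0.63, 0.42 and 0.30. PLEC, encoding the plectin that links beta4 to keratin, was at 864 ± 42.3 against 1537 ± 47.7 CPM and fell by 0.83 on the log2 scale (edgeR adjusted p = 1.68e-10). KRT5, the basal keratin, was at 111 ± 5.49 against 126 ± 9.90 CPM (-0.18, edgeR adjusted p = 0.0130), a call lost without hypoxia library 2 (-0.15, adjusted p = 0.0624 in edgeR).

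Of the 5 laminin receptors other than integrins that were tested, 2 were higher, 2 lower and DAG1 (dystroglycan) neither, shares near the 39.2% and 38.5% of all genes tested. BCAM, which binds LAMA5, was at 120 ± 6.41 CPM under hypoxia and 53.8 ± 3.43 CPM under normoxia (1.16, SE 0.0618, edgeR adjusted p = 1.78e-11). The syndecan SDC1 was at 217 ± 9.81 against 456 ± 26.7 CPM and fell by 1.07 on the log2 scale (edgeR adjusted p = 1.73e-11). RPSA, a ribosomal protein also described as a laminin receptor precursor, changed by 0.20 and SDC4 by -0.18 (edgeR adjusted p = 1.48e-03 and 4.12e-03). All 4 of these genes were free of overlap between conditions.

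Of 29 integrin activators and adhesion adaptors in the cytoplasm that were tested, 11 were higher, 13 lower and 5 neither, shares near the 39.2% higher and 38.5% lower of all genes tested, and the median log2 fold change was -0.08. FERMT1, the kindlin of epithelium that activates beta1 integrins, was at 95.3 ± 5.59 CPM under hypoxia and 272 ± 19.3 CPM under normoxia and fell by 1.52 on the log2 scale (SE 0.0630, edgeR adjusted p = 8.97e-13). ITGB1BP1, which competes with talin for the beta1 tail, was at 48.5 ± 4.0 against 89.1 ± 5.43 CPM (-0.88, edgeR adjusted p = 2.15e-09). LIMS2, a partner of integrin-linked kinase, was at 6.41 ± 1.18 against 0.90 ± 0.40 CPM (2.83, edgeR adjusted p = 2.15e-08), and TNS1, a tensin, had the highest value of the list (4.91, SE 0.478, edgeR adjusted p = 4.74e-08) on a normoxia level of 0.070 CPM, from 4, 1 and 2 counts. The kinase genes PTK2 and SRC, named here after their values were seen, changed by 0.61 and 0.87, and the adaptors PXN and ILK by -0.50 and -0.52. Others of the list, such as TLN1, VCL and FBLIM1, were called higher at 0.31, 0.22 and 0.82, so adaptors went both ways.

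Ligands of integrins other than laminin held the strongest decreases of the 4 lists. Of 12 tested, 8 were higher and 3 lower, with a median log2 fold change of 0.69, against the same 39.2% and 38.5% of all genes tested. THBS1, thrombospondin-1, was at 299 ± 52.8 CPM under hypoxia and 2141 ± 302 CPM under normoxia and fell by 2.84 on the log2 scale (SE 0.109, edgeR adjusted p = 3.72e-13). CCN2, a matricellular ligand of several integrins, was at 4.17 ± 0.170 CPM under hypoxia, 4.79-fold under its normoxia level (-2.26, SE 0.108, edgeR adjusted p = 4.89e-12), and CCN1, its relative and the third of the decreases, changed by -2.04. ICAM1, the ligand of CD18 integrins, was at 481 ± 35.2 against 192 ± 8.94 CPM (1.33, SE 0.0602, edgeR adjusted p = 2.59e-12), and MFGE8, a ligand of alphav integrins, at 58.4 ± 0.933 against 23.2 ± 2.81 CPM (1.33, SE 0.0773, edgeR adjusted p = 5.31e-11). Fibronectin, FN1, the ligand of alpha5beta1, was named after its value was seen: it was at 464 ± 40.1 against 271 ± 16.6 CPM (0.78, edgeR adjusted p = 5.58e-09).

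**Figure D4:**
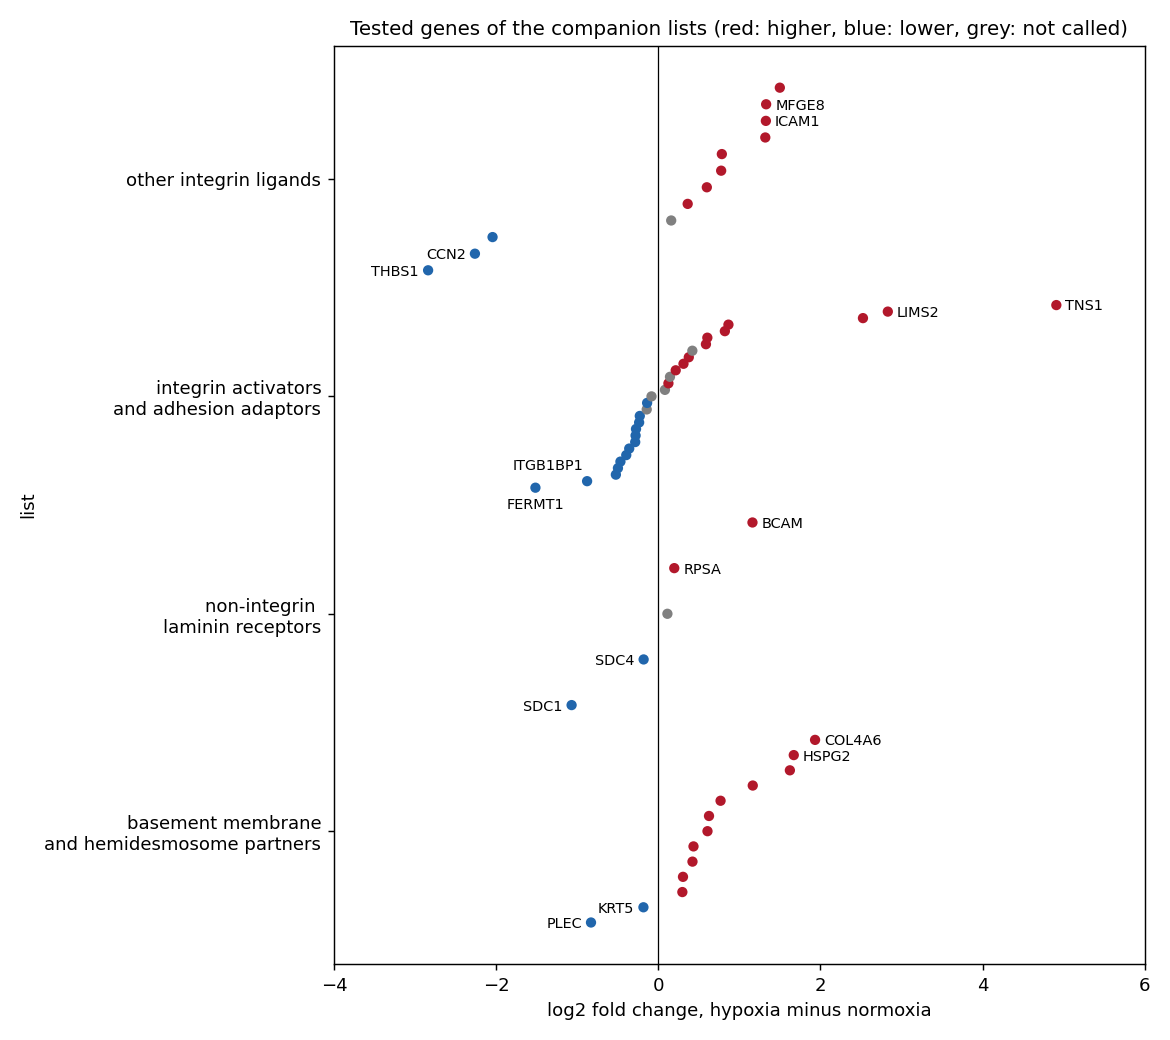
Log2 fold change (hypoxia minus normoxia, horizontal axis) of the tested genes of 4 lists of partner genes (vertical axis), 1 point per gene, with the genes of the naming rule labelled; red is called higher, blue called lower and grey not called. TNS1 lies at 4.91 and THBS1 at -2.84, and the adaptors lie on both sides of 0 with 11 higher and 13 lower.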

How the data were processed

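Human cells were sequenced as 6 libraries, 3 per condition, with the SMARTER kit named in the labels. The authors deposited whole-number counts per gene, not normalized, and FPKM of the same genes. The aligner, counter, annotation and strand setting are not given in the sources used here, and the submitters' processing notes name only a mouse assembly, GRCm38 (mm10), although the symbols are human.

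Counts were tested with edgeR 4.0.16 (R 4.3.3): TMM, filterByExpr, condition as the only term, the quasi-likelihood F test and Benjamini-Hochberg adjustment at 0.05. CPM used the TMM-adjusted total. The FPKM values as deposited served for levels, shares and ratios. Totals of 29637189 to 37278703 leave genes with 3 or fewer counts unmeasured, and replicates differed by more than sampling noise (chi-square per gene 4.9 to 10.8). The test was first checked on simulated counts.

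Members and lists were chosen with earlier results of these data known, and 1 member is not reported here. Members with a mean of at least 1 CPM in a condition have values (CPM or counts) per library, and from each list the 2 largest called changes in each direction at a mean of at least 1 CPM over the 6 libraries are named. Alternatives were DESeq2 1.42.0 (size factors and Wald test), other filters, a replicate block and leaving out each library. Exonic overlaps come from GENCODE v29.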

Additional observations from a re-analysis of the deposited data

How the results depend on the processing

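No result reversed under any alternative run. For single members, 268 of 282 values kept direction and call and 14 lost the call, and for named genes of the 4 lists 172 of 175 kept both and 3 lost the call. Requiring a log2 fold change beyond 1 in size left 4338 of 11090 genes. Of the members, 2 laminin chains were then higher and 1 lower, and 8 integrin subunits were higher and 0 lower. In the lists, 4 basement membrane and hemidesmosome partners were higher and 0 lower, and 1 non-integrin laminin receptor was higher and 1 lower. The adaptors held 3 higher and 1 lower, and the other ligands 4 higher and 3 lower. Without a filter on low counts, 2 laminin chains were lower (LAMA1 and LAMB4, the latter with an adjusted p of 0.0397 in edgeR), LAMB1 lost its call (0.09, adjusted p = 0.172), and ITGAL, ITGAM and ITGAX were called higher (adjusted p = 0.0349, 0.0490 and 3.03e-03). When every library had to hold 10 counts of a gene, the median of the shared genes rose by 0.0775 on the log2 scale: 1 partner (PLEC) and 1 non-integrin receptor (SDC1) were then lower, and KRT5, SDC4 and ITGB8 lost their calls (edgeR adjusted p = 0.127, 0.0698 and 0.0807). Non-integrin laminin receptors called higher numbered 3 under that filter and 3 under the DESeq2 Wald test, beside 2 in the main fit. Leaving out 1 library gave 0 to 2 lower laminin chains and 1 to 2 lower partners. The cause was not tested. The ratios were recomputed without each library as an addition made after the data had been seen, and kept their direction.

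No pairing of the libraries by replicate number was visible. The deviations of same-numbered libraries correlated at 0.0175, -0.069 and 0.00122, and those of differently numbered libraries at -0.0691 to 0.0663. These values cannot show whether the numbers mark paired cultures. With the replicate block, 10875 genes were called, and among the members only LAMB1 lost its call (0.13, edgeR adjusted p = 0.0740). Depth limits the members under 1 CPM, whose fold changes rest on few counts.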

Other observations

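Genes whose names resemble those of the laminins and integrins, but that the naming rule leaves out, were measured in the same fit. ITGBL1, a secreted protein with repeats like those of the integrin beta stalk, was at 83.5 ± 2.05 CPM under hypoxia and 36.9 ± 2.28 CPM under normoxia (SD, n = 3), a log2 fold change of 1.18 (SE 0.0614, edgeR adjusted p = 1.37e-11), with no overlap. ITGB3BP, a centromere protein first found through the beta3 tail, was at 13.6 ± 0.609 against 15.5 ± 0.817 CPM and was not called (-0.19, edgeR adjusted p = 0.0730). ITGB1BP2, a muscle protein that binds the beta1 tail, had 8, 11 and 2 counts under hypoxia and 21, 11 and 18 under normoxia (-1.31, edgeR adjusted p = 0.0329). Of the noncoding genes named after an integrin, ITGB8-AS1 was at 2.87 ± 0.649 against 1.31 ± 0.308 CPM (1.13, edgeR adjusted p = 1.05e-03), and ITGB1-DT and ITGA9-AS1 were both called higher at under 1 CPM (1.01 and 1.08, edgeR adjusted p = 0.0269 and 0.0305).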
